A study of Mus musculus with 18 samples.

Results

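The genes that encode the proteasome were read across astrocytes, microglia and neurons of *Atxn2*-CAG100-KIN and wild-type (WT) mice. The rule for members uses symbols and no measured value, and takes every gene whose name is Psma, Psmb, Psmc, Psmd, Psme, Psmf or Psmg followed by a number. Of 35823 symbols, 48 fit this pattern, with 274 transcripts, and 44 of the 48 reached 5 reads in at least 2 of the 18 libraries, as 13552 genes did in all. The pattern leaves out some true subunits and partners that carry other names, such as Sem1 and Adrm1, which stand among the associated genes below.

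The KIN mice were homozygous for an Atxn2 allele in which an expanded CAG repeat replaces the single glutamine codon of the mouse gene, on a C57BL/6 background, and the WT mice were their littermates. All mice were 10 months old, and per the study's methods each genotype held both sexes, in mutant and WT pairs of 1 sex. From each brain, microglia were taken with anti-CD11b beads, then astrocytes with anti-ACSA-2 beads, and neurons remained after labelled non-neuronal and CD31-positive cells were held back. Each of the 6 groups had 3 libraries, and the 3 fractions of a mouse come from the same brain, although the sources do not say which replicate numbers share a mouse. Reads were tagged by unique molecular identifiers, and the library type reads the 3′ end of the RNA after polyadenylation, so that small and unpolyadenylated RNA is read too. Total counts were 2118317 to 2829969 in astrocytes, 2334633 to 3296398 in microglia, 761481 to 1017972 in WT neurons and 1473194 to 2017932 in KIN neurons. In every library 10 genes took 75.8% to 85.4% of the counts. The proteasome genes without Psmd9, which is set apart below, held 509 to 966 reads in a glial library, 178 to 254 in a WT neuronal one and 344 to 494 in a KIN neuronal one.

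The markers of each fraction were checked by their summed CPM (counts scaled to a common library size, scaled over the 18 libraries by trimmed mean of M values, TMM). A list of 6 microglial markers summed to 434 to 744 CPM in microglia and to 4.03 to 11.4 CPM in all other libraries, and Aif1, Tmem119 and P2ry12 were at 0 in all 6 neuronal libraries. A list of 6 astrocyte markers summed to 192 to 425 CPM in astrocytes and to at most 16.6 CPM elsewhere. A list of 6 neuronal markers summed to 95.7 to 162 CPM in neurons, but also to 30.7 to 88.7 CPM in astrocytes. Tubb3 (71.2 ± 6.15 CPM) and Gad1 (19.5 ± 8.48 CPM) made up most of the sum in WT neurons, and the other 4 had higher means in WT astrocytes than in WT neurons: Snap25 16.9 against 3.82, Syt1 10.7 against 1.77, Rbfox3 11.3 against 3.52 and Map2 16.6 against 12.2 CPM. The astrocyte fraction held 4 oligodendrocyte markers at 228 to 363 CPM, as did WT neurons replicate 2 at 227 CPM, against 7.59 to 21.6 CPM in the other neuronal libraries. The neuronal fraction held 6 T and NK lymphocyte markers at 71.8 to 98.4 CPM, against 1.92 to 7.15 CPM in every glial library. In such bulk fractions, fewer cells of a type and less RNA per cell cannot be told apart.

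The proteasome is the protease that degrades ubiquitin-tagged proteins. Its 20S core is a barrel of outer rings of alpha subunits (Psma genes), which gate the channel, and inner rings of beta subunits (Psmb genes), of which Psmb5, Psmb6 and Psmb7 carry the proteolytic sites. The 19S cap adds a ring of ATPases (Psmc genes) that unfold the substrate and non-ATPase subunits (Psmd genes) that bind and remove ubiquitin. Immune cells and cells exposed to interferon replace the catalytic subunits by Psmb8 (for Psmb5), Psmb9 (for Psmb6) and Psmb10 (for Psmb7), which gives the immunoproteasome, and make the PA28 cap of Psme1 and Psme2; both favour peptides that fit MHC class I. Psmg genes and Psmd5, Psmd9 and Psmd10 are assembly chaperones.

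Promoter windows are shown for 6 members that differ in the comparisons below, because these immune and constitutive subunits are known to answer to different transcription factors. The windows are from RefSeq on GRCm38.p6, which is not the mm39 build of the counts, and run from 250 bases before to 50 bases after the annotated start. They lie at chr17:34197945-34198244 on the plus strand (Psmb8), chr17:34187281-34187580 on the minus strand (Psmb9), chr14:55578244-55578543 on the plus strand (Psme1), chr11:97703184-97703483 on the plus strand (Psmb3), chr14:54617946-54618245 on the minus strand (Psmb5) and chr11:70525107-70525406 on the plus strand (Psmb6). Capitals mark matches to GAAA followed by any 2 bases and GAAA again (the core of an interferon-stimulated response element), TTCNNNGAA (a STAT site) or TGACNNNGC (the core that NFE2 family factors bind), on either strand.
Psmb8: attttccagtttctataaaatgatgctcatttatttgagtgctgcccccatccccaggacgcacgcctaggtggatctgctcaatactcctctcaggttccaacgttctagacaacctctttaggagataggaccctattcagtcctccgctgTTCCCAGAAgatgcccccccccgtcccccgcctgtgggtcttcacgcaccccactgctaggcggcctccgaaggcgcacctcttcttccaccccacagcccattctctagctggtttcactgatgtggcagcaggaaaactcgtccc
Psmb9: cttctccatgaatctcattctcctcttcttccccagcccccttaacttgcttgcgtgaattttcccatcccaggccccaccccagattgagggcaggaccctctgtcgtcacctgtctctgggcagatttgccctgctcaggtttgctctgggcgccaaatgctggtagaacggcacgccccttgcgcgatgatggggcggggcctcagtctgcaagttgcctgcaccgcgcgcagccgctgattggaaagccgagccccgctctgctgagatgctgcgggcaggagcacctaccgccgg
Psme1: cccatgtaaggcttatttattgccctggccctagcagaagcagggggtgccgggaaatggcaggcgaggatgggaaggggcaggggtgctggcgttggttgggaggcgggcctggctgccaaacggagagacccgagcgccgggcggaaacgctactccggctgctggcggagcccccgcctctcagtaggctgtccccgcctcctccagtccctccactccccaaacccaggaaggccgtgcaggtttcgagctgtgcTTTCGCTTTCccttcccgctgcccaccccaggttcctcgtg
Psmb3: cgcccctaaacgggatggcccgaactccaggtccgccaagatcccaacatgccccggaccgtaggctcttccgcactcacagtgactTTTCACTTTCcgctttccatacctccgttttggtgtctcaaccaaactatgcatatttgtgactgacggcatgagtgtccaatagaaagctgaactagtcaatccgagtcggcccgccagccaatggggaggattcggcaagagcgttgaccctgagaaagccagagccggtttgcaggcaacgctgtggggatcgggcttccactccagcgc
Psmb5: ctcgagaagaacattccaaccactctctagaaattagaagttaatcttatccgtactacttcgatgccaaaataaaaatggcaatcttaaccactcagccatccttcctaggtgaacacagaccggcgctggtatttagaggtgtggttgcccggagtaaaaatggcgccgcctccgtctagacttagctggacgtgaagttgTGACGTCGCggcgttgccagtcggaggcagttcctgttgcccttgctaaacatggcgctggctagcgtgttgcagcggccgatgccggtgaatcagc
Psmb6: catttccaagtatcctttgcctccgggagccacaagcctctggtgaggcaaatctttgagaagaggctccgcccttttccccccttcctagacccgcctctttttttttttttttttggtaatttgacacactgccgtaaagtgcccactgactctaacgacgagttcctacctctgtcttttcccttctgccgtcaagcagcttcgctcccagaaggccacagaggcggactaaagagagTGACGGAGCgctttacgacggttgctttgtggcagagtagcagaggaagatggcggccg

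Of the 48 genes, 40 had a window. The interferon-response core was found in 5 of them (Psmb3, Psmd4, Psmd9, Psme1 and Psmg4) and in 3.44% of all 32851 windows, TTCNNNGAA in 3 (Psmb8, Psmd2 and Psmg1) and in 8.30% of all windows, and TGACNNNGC in 6 (Psmb5, Psmb6, Psmc6, Psmd9, Psmd12 and Psme4) and in 12.4% of all windows. Psmb9 held none of the 3, which says only that these letters are not in this window. The letters are matches and were not shown to be bound.

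The subunits that make up the constitutive 26S proteasome were all read, at low depth. The members that did not reach the read minimum were Psma5, an alpha subunit (35 reads in all, at most 7 in a library), Psmd10, a base assembly chaperone (26 reads), Psmg4, a core assembly chaperone (37 reads), and Psma8, the testis alpha subunit. Psma8 had 0 reads in all 18 libraries, and a count of 0 allows up to 3 reads in a library. The rest of the classes were covered by 6 of 7 alpha subunits, 4 of 4 structural beta subunits, 3 of 3 constitutive catalytic subunits, 3 of 3 immunoproteasome subunits, 6 of 6 ATPases, 11 of 11 non-ATPase subunits, both PA28 alpha and beta genes, the activators Psme3 and Psme4 and the inhibitor Psmf1. Levels are CPM and are not corrected for length, so they are compared between groups for 1 gene or 1 sum, not between genes.

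Psmd9, a chaperone of the 19S base, held 35.7% to 75.8% of all member reads in a library. Of its reads, 13931 were on 1 transcript with a retained intron, ENSMUST00000196137 at chr5:123366321-123367094 on the plus strand (mm39), which is 98.5% of the gene. The other Psmd9 transcripts together held 0 to 22 reads in a library. Psmb11, the thymic beta subunit, had 99.5% of its reads on ENSMUST00000097177 (chr14:54862767-54867013, plus strand), at 2.05 to 12.1 CPM in all 18 libraries. Without Psmd9, 64.3% of member reads were on protein-coding transcripts and 24.1% on retained-intron ones.

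Strand was not used in the counting, and in 24 of the 48 members an exon overlaps an exon of another annotated gene. Psme1 overlaps Emc9, Psme2 overlaps Rnf31 and Psmb9 overlaps Tap1, each on the opposite strand, so their reads cannot be told apart from their partners' where the exons meet. Psme2b, a copy of Psme2, had 34 reads in all and at most 9 in a library, so that the split between them is uncertain.

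The 3 immunoproteasome genes were higher in every microglial library than in any astrocyte library of the same genotype. The share of all genes that separate in this way between the fractions was not counted. In WT mice Psmb10 did not pass the test given below. Psmb8 (chr17:34416690-34420428, plus strand, mm39) was at 0.706, 2.60 and 0.314 CPM in WT astrocytes, 5.97, 20.8 and 4.68 CPM in WT microglia and 7.59, 10.3 and 2.70 CPM in WT neurons. In KIN mice it was at 0.864, 0.512 and 0.767 CPM in astrocytes, 19.5, 22.3 and 13.3 CPM in microglia and 5.90, 8.11 and 9.67 CPM in neurons. In both genotypes every neuronal library was above every astrocyte library too. In KIN mice every microglial library was also above every neuronal one, while in WT mice these fractions overlapped. Of the Psmb8 reads, 28.1% were on a retained-intron transcript and 25.0% on the main protein-coding one, so the gene's sum holds unspliced or partly spliced RNA as well.

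Psmb9 (chr17:34400960-34406738, minus strand) was at 0.706, 0.650 and 0.941 CPM in WT astrocytes, 7.77, 6.45 and 7.66 CPM in WT microglia and 3.25, 3.08 and 2.70 CPM in WT neurons. In KIN mice it was at 0.864, 2.05 and 0.767 CPM in astrocytes, 9.93, 10.8 and 11.6 CPM in microglia and 1.97, 2.43 and 3.87 CPM in neurons. Microglial libraries did not overlap with those of either other fraction. Tap1, whose exons overlap it on the other strand, was at 0.314 to 2.30 CPM in astrocytes and 2.48 to 7.90 CPM in microglia. Psmb10 (chr8:106662362-106665077, minus strand) was at 2.12, 2.28 and 1.88 CPM in WT astrocytes and 4.48, 3.97 and 3.83 CPM in WT microglia. It was at 0.288, 2.05 and 2.30 CPM in KIN astrocytes and 3.18, 6.10 and 8.07 CPM in KIN microglia, again without overlap between the fractions, while its neuronal libraries ran from 0 to 5.39 CPM.

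The constitutive catalytic genes took the opposite order between the glial fractions. Psmb5 (chr14:54850776-54855481, minus strand), the chymotrypsin-like site, was at 8.12, 9.10 and 6.58 CPM in WT astrocytes and 5.97, 5.46 and 4.26 CPM in WT microglia. In KIN mice it was at 12.4, 16.4 and 13.0 CPM in astrocytes and 5.96, 6.10 and 5.61 CPM in microglia. Its microglial libraries were below the astrocyte ones in both genotypes, without overlap. Psmb6, the caspase-like site, was at 6.71, 10.7 and 6.58 CPM in WT astrocytes and 3.58, 4.46 and 2.55 CPM in WT microglia, and at 12.4, 9.72 and 13.4 CPM in KIN astrocytes and 6.75, 4.67 and 4.91 CPM in KIN microglia. Psmb7, the trypsin-like site, was at 3.53, 3.25 and 4.08 CPM in WT astrocytes and 2.09, 2.48 and 0.851 CPM in WT microglia. In KIN mice its values were 5.19, 6.65 and 8.82 CPM in astrocytes and 1.99, 2.51 and 1.05 CPM in microglia. For all 3 genes the astrocyte libraries were above the microglial ones of the same genotype. The share of all genes for which this holds was not counted either, and in WT mice Psmb5 and Psmb7 did not pass the test given below.

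**Figure D1:**
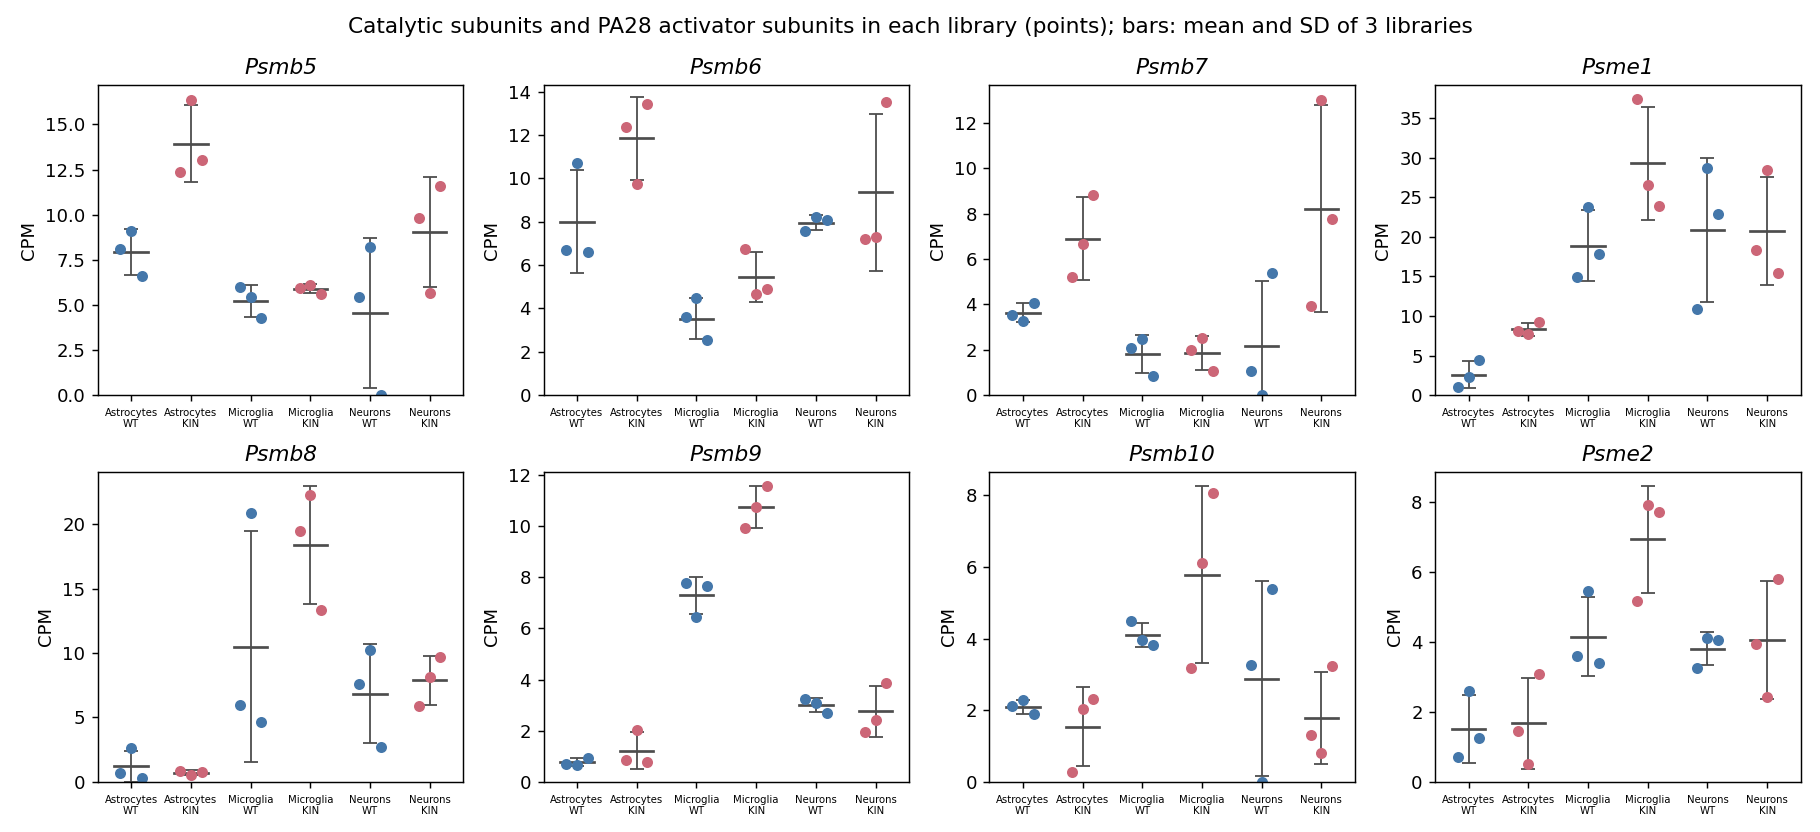
Levels in CPM (vertical axes, from 0) of the constitutive catalytic subunits Psmb5, Psmb6 and Psmb7, the immunoproteasome subunits Psmb8, Psmb9 and Psmb10 and the PA28 subunits Psme1 and Psme2 in each library (points; blue WT, red KIN), with the mean and SD of 3 libraries. The astrocyte libraries lie below the microglial ones of the same genotype for Psmb8, Psmb9, Psmb10, Psme1 and Psme2, and above them for Psmb5, Psmb6 and Psmb7.

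The plot of catalytic and activator levels shows each of these values on its own scale. The fractions were then compared by edgeR's quasi-likelihood test within each genotype, on all genes with 5 reads in at least 2 libraries. Calls needed a p adjusted over all genes by Benjamini-Hochberg that was 0.05 or less, with a log2 fold change (log2FC) of 1 or more in size. The 3 contrasts of a genotype share libraries, so they are given side by side and not counted against each other.

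Between microglia and astrocytes of WT mice, Psmb8, Psmb9 and Psme1 were higher whichever library was left out, while the share of members called was under the background in both directions. In WT mice 5 of 44 members were called higher, where 12.0% of all genes tested were, and 2 lower, where 13.1% were. Psmb9 was higher by a log2FC of 3.19 ± 0.55 (SE, edgeR adjusted p = 6.09e-07), Psmb8 by 3.01 ± 0.51 (edgeR adjusted p = 4.05e-07) and Psme1 by 2.83 ± 0.40 (edgeR adjusted p = 1.16e-09). Over the other settings and left-out libraries the value of Psmb8 ran from 2.15 to 4.20, on 2, 8 and 1 reads in WT astrocytes. Psma1, an alpha subunit, was higher by 1.72 ± 0.63 (edgeR adjusted p = 0.0313) and Psme2 by 1.39 ± 0.55 (edgeR adjusted p = 0.0466). Psmb10 had a log2FC of 0.99 ± 0.52 (edgeR adjusted p = 0.163), which did not pass. Psmb4, a structural beta subunit, was lower (log2FC -1.49 ± 0.48, edgeR adjusted p = 0.0118), and so was Psmb6 (log2FC -1.16 ± 0.41, edgeR adjusted p = 0.0236). Psmb7 had a log2FC of -0.95 ± 0.56 and Psmb5 of -0.56 ± 0.39, with edgeR adjusted p of 0.219 and 0.323. Psmd14, the deubiquitinase of the lid, had the second lowest log2FC of the members, -1.45 ± 0.90 (edgeR adjusted p = 0.253), on 3 to 6 reads in a WT astrocyte library and 1 to 2 in a WT microglial one. Psme3, the nuclear PA28 gamma, and Psme4, or PA200, had log2FCs smaller than their SE.

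In KIN mice 5 of 42 members were called higher in microglia than in astrocytes, where 17.5% of all genes were, and 7 lower, where 18.8% were. Psmb8 was higher by 4.51 ± 0.42 (edgeR adjusted p = 3.63e-19), Psmb9 by 3.19 ± 0.43 (edgeR adjusted p = 9.96e-11) and Psmb10 by 2.03 ± 0.49 (edgeR adjusted p = 0.000293). Psme2 was higher by 1.96 ± 0.44 (edgeR adjusted p = 7.42e-05) and Psme1 by 1.79 ± 0.26 (edgeR adjusted p = 9.93e-10). All 3 constitutive catalytic genes were lower, Psmb7 by a log2FC of -1.85 ± 0.43 (edgeR adjusted p = 0.00016), Psmb5 of -1.22 ± 0.29 (edgeR adjusted p = 0.00025) and Psmb6 of -1.15 ± 0.30 (edgeR adjusted p = 0.000935). The other 4 were the structural subunit Psmb2 (log2FC -1.55 ± 0.29, edgeR adjusted p = 2e-06) and the ATPases Psmc4, Psmc5 and Psmc1 (log2FC -1.81 ± 0.38, -1.52 ± 0.44 and -1.04 ± 0.33). Psme3 had a log2FC of -1.07 ± 0.49 (edgeR adjusted p = 0.0724), and that of Psme4 was smaller than its SE. Of the 3 immunoproteasome and 2 PA28 genes, 4 were called in WT mice, Psme2 among them, and all 5 in KIN mice. Psmc1 was not called by DESeq2 or without KIN astrocytes replicate 3, KIN microglia replicate 1 or KIN microglia replicate 3, nor Psmc5 without KIN microglia replicate 3. On its transcript of highest mean, Psme2 was at 1.29 in KIN mice (edgeR adjusted p = 0.158), not called, while Psmb9 in WT mice and Psmb10 in KIN mice had too few reads on 1 transcript to be tested.

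**Figure D2:**
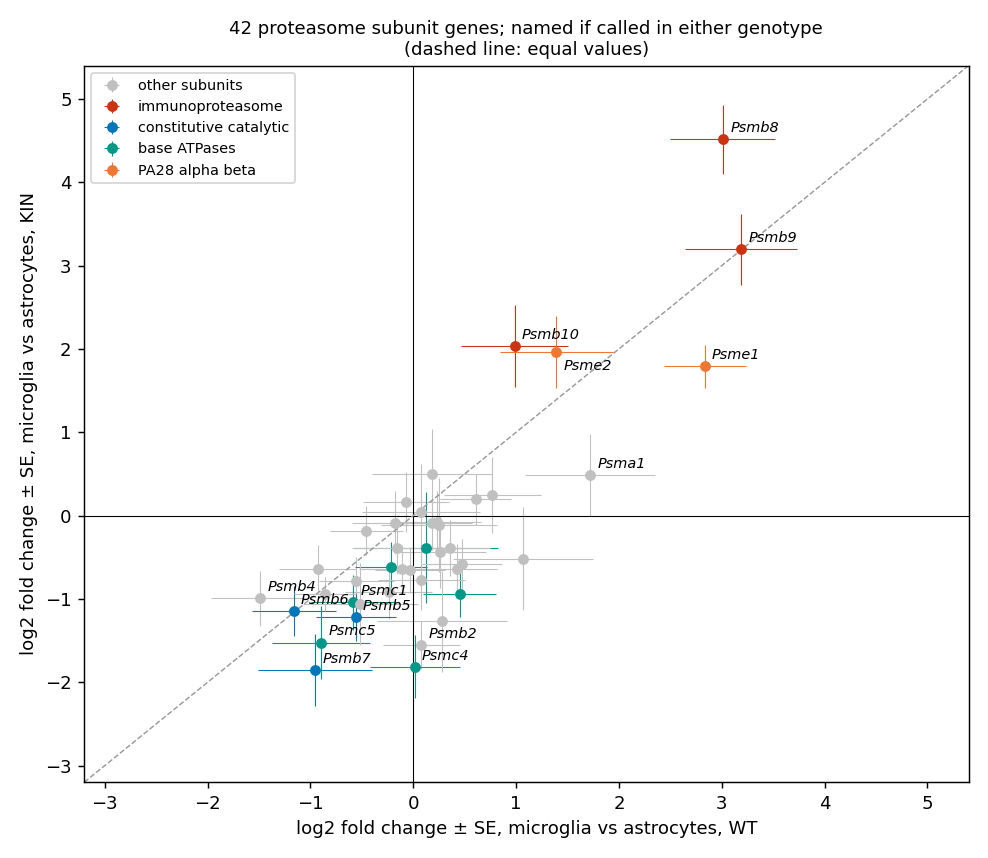
Log2FC ± SE of microglia against astrocytes in WT mice (horizontal) and in KIN mice (vertical) for the members tested in both genotypes, with members called in either genotype named and classes coloured. Psmb8, Psmb9, Psmb10, Psme1 and Psme2 lie above 0 on both axes, and Psmb5, Psmb6, Psmb7 and Psmb4 below 0 on both.

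The plot of microglia against astrocytes sets these values of both genotypes against each other. In WT mice Psmb8, Psmb9 and Psme1 were called whichever library was left out. Without WT microglia replicate 1 they were the only 3 calls, and without WT microglia replicate 3 there were 4. Over all genes, 1277 were called higher and 1324 lower without WT microglia replicate 1, against 1479 and 1610 with all libraries. DESeq2 called 4 members and not Psma1, Psmb6 or Psme2, with DESeq2 adjusted p of 0.117, 0.0606 and 0.111. Psme2 was also not called with no low-count filter (edgeR adjusted p = 0.0745), nor without WT astrocytes replicate 1 or 3 or any 1 of the WT microglial libraries. Psma1 was not called without WT astrocytes replicate 3 or WT microglia replicate 1 or 3, Psmb6 without WT astrocytes replicate 2 or WT microglia replicate 1 or 3, and Psmb4 without WT astrocytes replicate 1 or WT microglia replicate 1. On its transcript of highest mean Psmb4 was at -1.08 (edgeR adjusted p = 0.239).

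The sums of the constitutive 26S genes were compared between the glial fractions in each genotype. The 31 constitutive genes of the core, base and lid summed to 173 ± 16.0 CPM (SD, n = 3) in WT astrocytes and 156 ± 15.5 CPM in WT microglia, with overlap. In KIN mice the sum was 251 ± 11.5 CPM in astrocytes and 150 ± 10.2 CPM in microglia, without overlap. The median log2FC of the members tested among them was -0.07 in WT mice (14 above 0 and 16 below) and -0.64 in KIN mice (3 above 0 and 25 below), beside medians of -0.04 and -0.01 over all genes. Among the 6 ATPases, 3 were above 0 in WT mice and none in KIN mice. The difference between the genotypes in this fraction contrast was tested per gene as an interaction, in which edgeR called 0 of the 30 constitutive genes tested, and it was not tested for the sum.

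Psme1 and Psme2 form PA28 alpha beta, the cap that opens the core without ATP. Psme1 (chr14:55815190-55822034, plus strand, mm39) was at 1.06, 2.28 and 4.39 CPM in WT astrocytes, 14.9, 23.8 and 17.9 CPM in WT microglia and 10.8, 28.7 and 22.9 CPM in WT neurons. In KIN mice it was at 8.07, 7.67 and 9.20 CPM in astrocytes, 37.3, 26.6 and 23.9 CPM in microglia and 18.3, 28.4 and 15.5 CPM in neurons. The astrocyte libraries were below all others in each genotype, while microglia and neurons overlapped. Emc9, its overlapping neighbour, was at 3.45 to 8.70 CPM in astrocytes, 3.58 to 22.3 CPM in microglia and 8.09 to 19.0 CPM in neurons. Psme2 (chr14:55824895-55829173, minus strand) was at 0.706 to 2.60 CPM in WT and 0.512 to 3.07 CPM in KIN astrocytes, and at 3.41 to 5.46 CPM in WT and 5.17 to 7.90 CPM in KIN microglia.

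In the neuronal fraction Psme1 and Psmb8 were above astrocytes in both genotypes. In WT mice 2 of 44 members were called higher in neurons than in astrocytes, where 6.07% of all genes were, and 1 lower, where 11.9% were. Psme1 was higher by 3.01 ± 0.44 (edgeR adjusted p = 8.88e-09) and Psmb8 by 2.54 ± 0.64 (edgeR adjusted p = 0.00167). Psmb9 had a log2FC of 1.95 ± 0.81 (edgeR adjusted p = 0.0809) and Psme2 of 1.31 ± 0.71 (edgeR adjusted p = 0.199). Psmd9 was lower by a log2FC of -1.50 ± 0.31 (edgeR adjusted p = 7.65e-05), but without its retained-intron transcript the value was -0.25 (edgeR adjusted p = 0.819). Psme3 had a log2FC of -2.80 ± 1.13 (edgeR adjusted p = 0.0712), and was called with all 18 libraries in 1 fit (-2.84, edgeR adjusted p = 0.0473). It was also called without WT neurons replicate 3 (edgeR adjusted p = 0.0346), where the remaining WT neuronal libraries are at 0 reads and the fitted value is no bound. Psmb5 had a log2FC of -0.66 ± 0.51 (edgeR adjusted p = 0.412). Without WT neurons replicate 2, the library with oligodendrocyte markers, Psmb8 was at 2.17 (edgeR adjusted p = 0.0542). Over all the other settings and left-out libraries Psmb8 ran from 2.08 to 3.77 and Psme1 from 2.12 to 3.62. Psmb7 had a log2FC of -0.85 ± 0.75 and the lid subunit Psmd6 of -2.10 ± 1.30, with edgeR adjusted p of 0.48 and 0.278. The log2FCs of Psmb6, Psmb10 and Psme4 were smaller than their SE. Psmc6, an ATPase, was at 0 reads in all 3 WT neuronal libraries against 14 reads in WT astrocytes and 13 in WT microglia, too few for a fold.

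In KIN mice 2 of 42 members were called higher in neurons than in astrocytes, where 13.2% of all genes were, and 4 lower, where 16.9% were. Psmb8 was higher by 3.26 ± 0.54 (edgeR adjusted p = 2.04e-07) and Psme1 by 1.24 ± 0.29 (edgeR adjusted p = 0.000295). Psme2 had a log2FC of 1.19 ± 0.55 (edgeR adjusted p = 0.0883), and was called without KIN astrocytes replicate 3 (1.83, edgeR adjusted p = 0.0284) and without KIN neurons replicate 2 (1.48, edgeR adjusted p = 0.0448). Psmb9 had a log2FC of 1.22 ± 0.65 (edgeR adjusted p = 0.145) and Psmb5 of -0.61 ± 0.31 (edgeR adjusted p = 0.119). Those called lower were the core chaperone Psmg1 (log2FC -3.08 ± 1.10), Psmb4 (-1.51 ± 0.42), Psmc4 (-1.27 ± 0.41) and Psmd9 (-1.17 ± 0.21), with edgeR adjusted p of 0.0216, 0.00224, 0.0104 and 1.53e-06. Psmd9 without its retained-intron transcript was at -0.37 (edgeR adjusted p = 0.526). Psmg1 was at 1.15, 4.09 and 2.30 CPM in KIN astrocytes and 0.655, 0 and 0 CPM in KIN neurons, without overlap. Neither Psmg1 nor Psmc4 was called by DESeq2 or without KIN astrocytes replicate 2, KIN neurons replicate 2 or KIN neurons replicate 3. Psme1 on its transcript of highest mean was at 0.87 (edgeR adjusted p = 0.118). Psmb6 had a log2FC of -0.39 ± 0.31 (edgeR adjusted p = 0.37), and those of Psmb7, Psmb10, Psme3 and Psme4 were smaller than their SE.

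Against microglia, the neuronal fraction had less immunoproteasome RNA in KIN mice. There 4 of 42 members were called higher in neurons, where 11.3% of all genes were, and 3 lower, where 15.2% were. The 3 lower ones were the immunoproteasome genes, Psmb9 (log2FC -1.98 ± 0.42, edgeR adjusted p = 6.34e-05), Psmb10 (-1.67 ± 0.55, edgeR adjusted p = 0.0126) and Psmb8 (-1.25 ± 0.31, edgeR adjusted p = 0.000497). The 4 higher ones were Psmb7 (2.03 ± 0.47, edgeR adjusted p = 0.000208), Psmb2 (1.53 ± 0.31, edgeR adjusted p = 2.94e-05), Psmc1 (1.02 ± 0.38, edgeR adjusted p = 0.0289) and the alpha subunit Psma4 (1.01 ± 0.36, edgeR adjusted p = 0.0233). Psme1 had a log2FC of -0.56 ± 0.25 and Psme2 of -0.78 ± 0.42, with edgeR adjusted p of 0.0785 and 0.165, and Psmb6 of 0.76 ± 0.36 and Psmb5 of 0.60 ± 0.35, with edgeR adjusted p of 0.0976 and 0.198. Psmb6 was called without KIN microglia replicate 1 (1.01) and without KIN neurons replicate 1 (1.02). On the transcript of highest mean, Psmb8 was at -0.96 (edgeR adjusted p = 0.182) and Psmb9 at -1.26 (edgeR adjusted p = 0.285), neither called. Without KIN neurons replicate 1, Psmb8 was at -0.98 (edgeR adjusted p = 0.0244), under the fold threshold. Psmb10 was not called without KIN neurons replicate 1 or 2 or KIN microglia replicate 3, nor by DESeq2 (-1.66, DESeq2 adjusted p = 0.116). Psma4 and Psmc1 were not called by DESeq2, with no low-count filter (edgeR adjusted p = 0.0609 and 0.0715), without KIN microglia replicate 3 or without KIN neurons replicate 3. With TMM taken without the 10 most abundant genes they fell just under the fold threshold, at 0.98 and 0.996. Psmf1 had 1.26 ± 0.69, Psme3 0.76 ± 0.58 and Psmg1 -2.56 ± 1.17, with edgeR adjusted p of 0.171, 0.356 and 0.0901. Psmg1, with at most 1 read in a KIN neuronal library, was called on its transcript of highest mean (edgeR adjusted p = 0.0276), and the value of Psme4 was smaller than its SE.

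In WT mice 1 of 44 members was called higher in neurons than in microglia, where 5.29% of all genes were, and 0 lower, where 11.6% were, by edgeR and also by DESeq2. At an unadjusted edgeR p of at most 0.05, 3 were higher, where 10.0% of all genes were, and 3 lower, where 19.0% were. It was Psmb4 (log2FC 1.80 ± 0.58, edgeR adjusted p = 0.0178), at 1.79, 1.98 and 2.55 CPM in WT microglia and 2.17, 7.18 and 13.5 CPM in WT neurons. The groups overlapped, and without WT neurons replicate 3 the value was 1.16 (edgeR adjusted p = 0.271) and without WT microglia replicate 1 it was 1.67 (edgeR adjusted p = 0.0684). It was also not called with no low-count filter (1.64, edgeR adjusted p = 0.0521) or on its transcript of highest mean (1.23, edgeR adjusted p = 0.321). Without WT microglia replicate 2 Psmb2 was called too (1.41, edgeR adjusted p = 0.0163), and with genes of a mean of at least 10 counts Psmb6 was (1.40, edgeR adjusted p = 0.0287). Psmb9 had a log2FC of -1.24 ± 0.59 and Psmb6 of 1.19 ± 0.51, with edgeR adjusted p of 0.137 and 0.0938. Psmb2 had 0.91 ± 0.41, Psme3 -2.28 ± 1.23 and Psmd6 -1.45 ± 1.42, with edgeR adjusted p of 0.12, 0.205 and 0.54. The log2FCs of the other catalytic and activator genes were smaller than their SE.

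The neuronal fraction, in which Psmb8 and Psme1 were above astrocytes, also held markers of lymphocytes. The 6 T and NK cell markers summed in neurons to 84.6 ± 13.3 CPM (mean and SD of 3 libraries) for WT and to 79.9 ± 9.73 CPM for KIN mice, and all 6 were read in both genotypes. Among them the chemokine Ccl5 was at 50.8 ± 17.5 CPM in WT and 43.6 ± 8.68 CPM in KIN neurons, and at most 2.39 ± 1.38 CPM in a glial group. Cd3d, a chain of the T cell receptor complex, was at 11.6 ± 2.42 and 10.1 ± 3.20 CPM. Lymphocytes are known to make the immunoproteasome and PA28, and their part in the Psmb8, Psmb9 and Psme1 levels of the neuronal fraction was not tested.

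The share of the immunoproteasome among catalytic subunit reads gives the same genes on a scale that needs no library scaling. It is the reads of Psmb8, Psmb9 and Psmb10 over these plus Psmb5, Psmb6 and Psmb7. It was 16.1%, 19.3% and 15.4% in WT astrocytes and 6.31%, 12.3% and 9.80% in KIN astrocytes. It was 61.0%, 71.6% and 67.9% in WT microglia and 68.9%, 74.7% and 74.0% in KIN microglia. In neurons it was 50%, 44.8% and 44.4% in WT and 30.4%, 30.4% and 33.8% in KIN mice. The fractions did not overlap in either genotype, and the KIN libraries were below the WT ones in astrocytes and neurons without overlap. In these fractions the sum of the constitutive catalytic genes was higher in KIN mice (19.6 ± 3.10 CPM in WT and 32.7 ± 2.66 CPM in KIN astrocytes, 14.7 ± 1.55 and 26.6 ± 5.98 CPM in neurons), without overlap. On this CPM scale 11.5% of all genes were higher in KIN neurons without overlap and 2.22% lower, beside 13.8% and 14.1% in astrocytes. In WT neurons Psmb5 had 5, 8 and 0 reads and Psmb7 had 1, 0 and 4. None of the 3 genes was called between genotypes in neurons. The immunoproteasome sum overlapped between genotypes in both fractions, at 4.06 ± 1.28 and 3.49 ± 1.33 CPM in astrocytes and 12.7 ± 1.73 and 12.4 ± 3.91 CPM in neurons. In microglia this sum was higher in KIN mice without overlap, at 16.2 to 31.3 CPM in WT and 32.6 to 39.1 CPM in KIN libraries. So was the microglial PA28 sum, at 18.5 to 29.3 and 31.6 to 42.5 CPM. Of all single genes, 8.46% were higher without overlap in KIN microglia. The depth is small: the exact 95% interval, which covers counting error only, ran from 8.02% to 27.7% in WT astrocytes replicate 1 (10 of 62 reads) and from 21.5% to 69.2% in WT neurons replicate 3 (8 of 18 reads). On the transcript of highest mean of each gene alone, the mean shares were lower in all 6 groups. These shares were described and not tested.

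**Figure D3:**
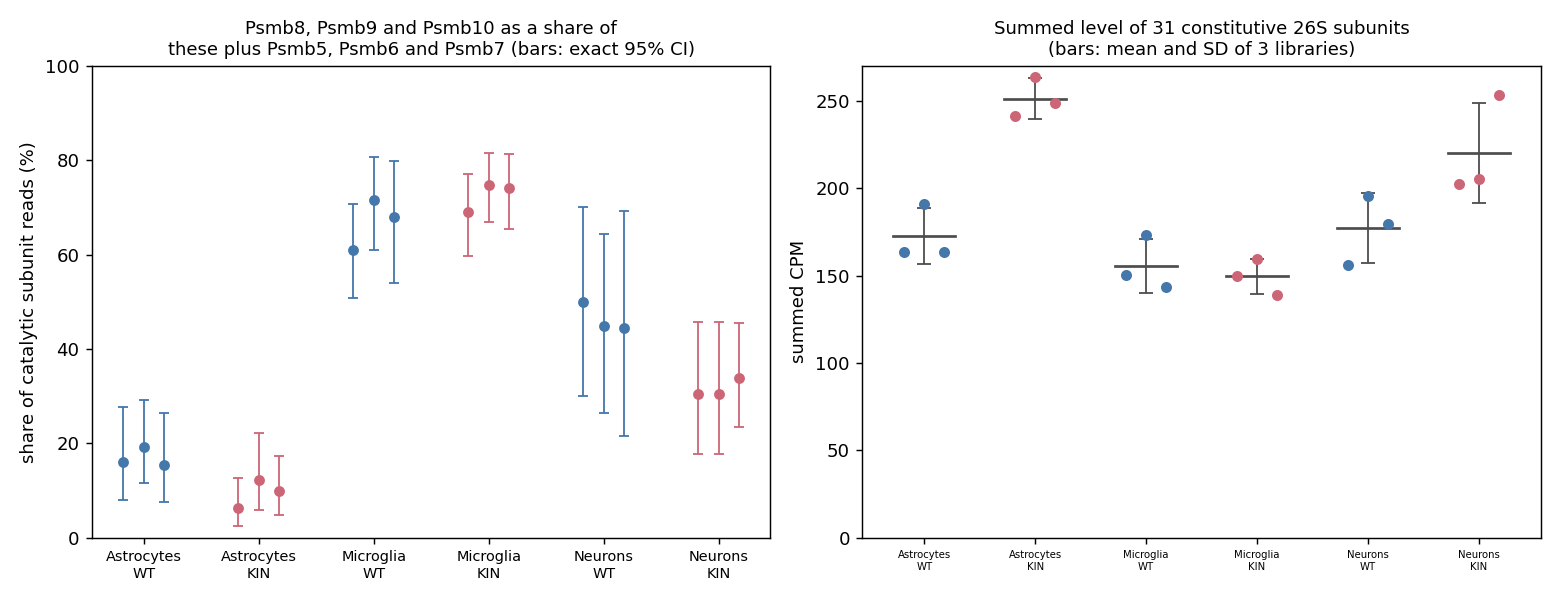
Left, the share in percent of Psmb8, Psmb9 and Psmb10 among reads of the 6 catalytic genes in each library, with exact 95% intervals (bars); right, the summed CPM of 31 constitutive 26S subunit genes in each library, with the mean and SD of 3 libraries. The share runs from 6.31% in a KIN astrocyte library to 74.7% in a KIN microglial one. The mean of the sum is highest in KIN astrocytes, whose libraries (241 to 264 CPM) overlap with those of KIN neurons (202 to 253 CPM).

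For subunits that replace each other, the microglial ratios were above the astrocyte ones. The log2 ratio of Psmb8 to Psmb5, with 0.5 reads added to each, was -2.94 ± 1.08 (SD, n = 3) in WT astrocytes, 0.67 ± 1.05 in WT microglia and 1.02 ± 1.13 in WT neurons. In KIN mice it was -3.95 ± 0.43, 1.58 ± 0.32 and -0.16 ± 0.60. The log2 ratio of Psmb9 to Psmb6 was -3.11 ± 0.58 in WT astrocytes, 1.03 ± 0.50 in WT microglia and -1.25 ± 0.14 in WT neurons, and in KIN mice it was -3.19 ± 0.94, 0.98 ± 0.37 and -1.63 ± 0.16. The log2 ratio of Psmb10 to Psmb7 was -0.74 ± 0.29, 1.20 ± 0.66 and 0.41 ± 0.71 in WT and -2.35 ± 1.11, 1.53 ± 1.09 and -2.01 ± 1.26 in KIN astrocytes, microglia and neurons. The neuronal ratios rest on few reads and, in some libraries, on the added 0.5: WT neurons replicate 3 had 2 reads of Psmb8 and 0 of Psmb5, and replicate 2 had 0 of both Psmb10 and Psmb7. The astrocyte ratios rest on few reads too, with 1 to 8 of Psmb8, 2 to 4 of Psmb9 and 1 to 7 of Psmb10 in a library. For the Psmb9 pair, where no WT neuronal library was at 0 reads, WT neurons lay below WT microglia. The plot of shares and sums shows both scales.

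The genotype comparison asks how the expanded Atxn2 allele goes with proteasome RNA in each cell fraction. In astrocytes 3 of 42 members were higher in KIN than in WT mice, where 2.43% of all genes tested were called higher, and 0 lower, where 6.42% were. At an unadjusted edgeR p of at most 0.05, 12 were higher, where 10.4% of all genes were, and 1 lower, where 14.5% were. DESeq2 called 2 higher, where 96 of all 11751 genes were, and 0 lower, where 257 were. Psme1 was higher by a log2FC of 1.63 ± 0.36 (edgeR adjusted p = 0.00136), with all 3 KIN libraries (7.67 to 9.20 CPM) above all WT ones (1.06 to 4.39 CPM). Emc9 was also higher without overlap, at 7.20 to 8.70 against 3.45 to 5.30 CPM, so the part of its reads in the value of Psme1 was not tested. On the Psme1 transcript of highest mean alone the log2FC was 1.41 (edgeR adjusted p = 0.0748). Psmb2 (chr4:126571423-126606667, plus strand), a structural beta subunit with 95.9% of its reads on 1 protein-coding transcript, was at 4.24, 9.75 and 8.15 CPM in WT and 13.5, 21.0 and 16.5 CPM in KIN astrocytes. It was higher by 1.14 ± 0.27 (edgeR adjusted p = 0.00307), without overlap. Psmb3 (chr11:97594073-97604335, plus strand), another structural subunit, was at 4.95, 6.50 and 4.39 CPM in WT and 12.1, 11.8 and 8.82 CPM in KIN astrocytes. It was higher by 1.03 ± 0.29 (edgeR adjusted p = 0.0142), again without overlap.

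Most other core and base subunits lay on the same side in astrocytes, by less. At the adjusted p alone, with no limit on the fold, 6 members were higher, where 4.33% of all genes were, and 0 lower, where 7.55% were. The other 3 were Psmc3 (log2FC 0.97 ± 0.28, edgeR adjusted p = 0.0135), Psmc4 (0.90 ± 0.31, edgeR adjusted p = 0.0449) and Psmb5 (0.77 ± 0.26, edgeR adjusted p = 0.0441). All 10 alpha and structural beta subunits tested had a log2FC above 0 (median 0.64), as did all 3 constitutive catalytic ones (median 0.77) and all 6 ATPases (median 0.32). Of the 11 non-ATPase subunits, 6 were above 0 and 5 below (median 0.06), and Psmd6 was lowest with -0.72 ± 0.68 (edgeR adjusted p = 0.567). Over all 42 members 30 were above 0 (median 0.35), beside a median of -0.00 over all genes tested. The groups did not overlap for 14 members that were higher, where 13.8% of all genes were, and for 1 that was lower, Psmd9, where 14.1% were.

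Psmb7 had a log2FC of 0.88 ± 0.34 (edgeR adjusted p = 0.0817), Psmb6 of 0.56 ± 0.27 (edgeR adjusted p = 0.187) and Psma1 of 1.13 ± 0.64 (edgeR adjusted p = 0.276) in astrocytes. Psmd9 was at -0.50 ± 0.23 (edgeR adjusted p = 0.16), which became 0.14 without its retained-intron transcript. Psmb8 and Psmb9 had too few reads to be tested in astrocytes alone, and the log2FCs of Psmb10, Psme2, Psme3 and Psme4 were smaller than their SE. The calls rested in part on WT astrocytes replicate 1, which had the lowest Psme1 and Psmb2: without it Psme1 alone was called (log2FC 1.28, edgeR adjusted p = 0.0342), and without WT replicate 2 there were 5 calls. The calls over all genes moved as well. They were 285 higher and 754 lower with all libraries, 165 and 440 without WT replicate 1, and 472 and 1055 without WT replicate 2. Psmb3 was not called without WT replicate 1 or 3 or without KIN replicate 1 or 2, nor by DESeq2 (DESeq2 adjusted p = 0.156) or on its transcript of highest mean (0.94, edgeR adjusted p = 0.107). With genes of a mean of at least 10 counts Psmb3 was at 0.995, under the fold threshold. Psmb2 was at 0.98 without KIN replicate 2 (edgeR adjusted p = 0.0309). Psme1 was called whichever library was left out, and its log2FC ran from 1.28 to 2.26 over all alternatives. The sum of the astrocyte markers moved with genotype in these libraries, from 292 to 425 CPM in WT to 192 to 205 CPM in KIN mice. Gfap alone among them went the other way, at 9.75 ± 4.79 CPM in WT and 17.1 ± 1.44 CPM in KIN mice. The 6 neuronal markers summed to 34.8 to 88.7 and 30.7 to 49.5 CPM, but not all in 1 direction: mean CPM was 16.9 in WT and 2.95 in KIN mice for Snap25, 10.7 and 1.88 for Syt1 and 11.3 and 2.08 for Rbfox3, against 7.78 and 15.2 for Tubb3. The 4 oligodendrocyte markers were at 228 to 363 and 320 to 339 CPM. Their part in the proteasome values was not tested.

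**Figure D4:**
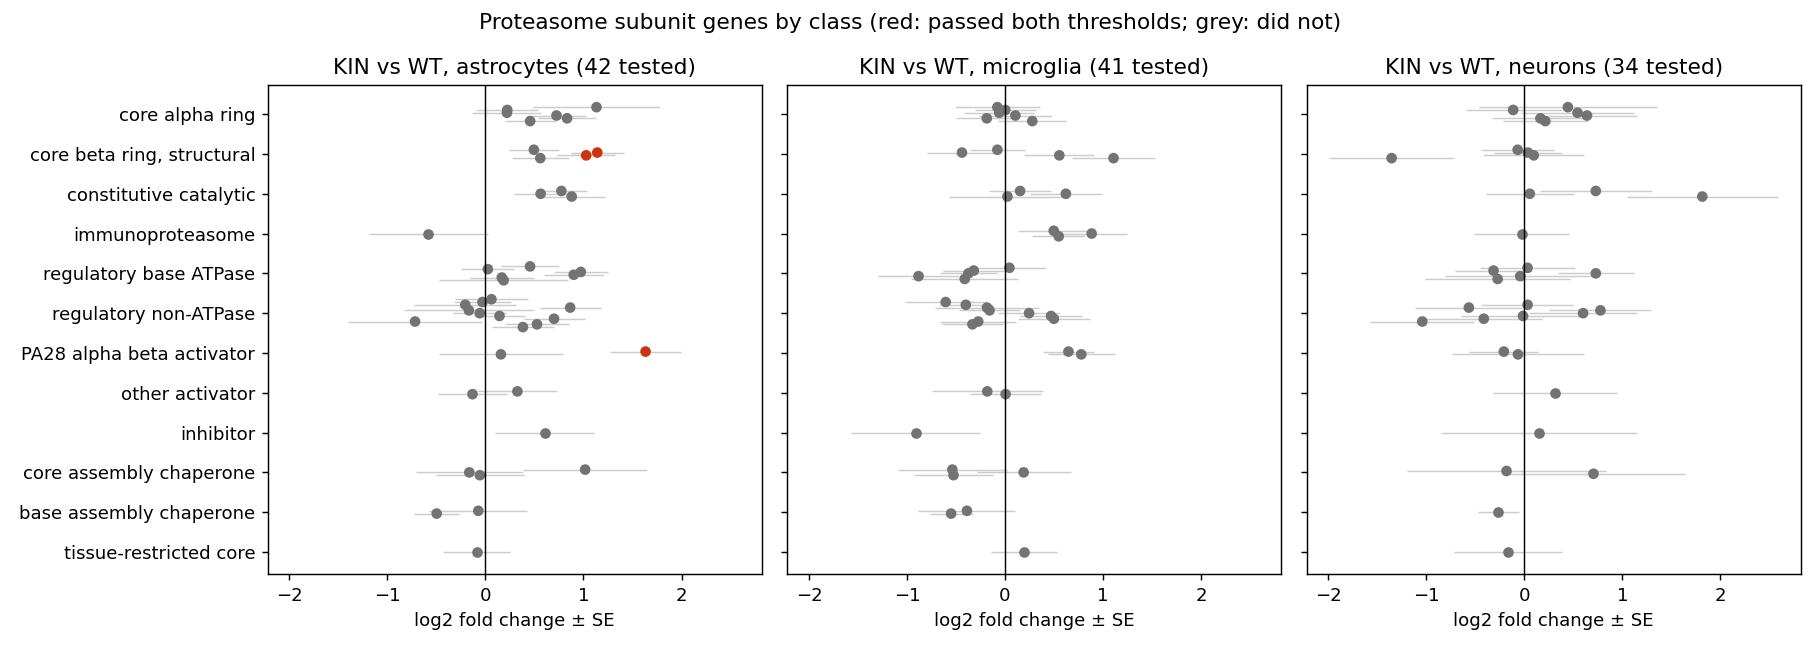
Log2FC ± SE of KIN against WT (horizontal) for each member tested in astrocytes, microglia and neurons, arranged by class; red points passed both thresholds. In astrocytes the alpha, structural beta, constitutive catalytic and ATPase classes lie right of 0 and 3 members passed, while in microglia and neurons no member passed.

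The plot of genotype differences by class shows the same members in all fractions. In microglia 0 of 41 members were called higher, where 0.739% of all genes were, and 0 lower, where 0.785% were, by edgeR and also by DESeq2. At an unadjusted edgeR p of at most 0.05, 4 were higher, where 6.19% of all genes were, and 2 lower, where 5.85% were. DESeq2 had 0 and 1 at that limit. The 4 were Psmb4 (log2FC 1.11 ± 0.42), Psmb8 (0.88 ± 0.36), Psme2 (0.78 ± 0.34) and Psme1 (0.65 ± 0.26), with edgeR adjusted p of 0.231, 0.29, 0.331 and 0.266. The 2 were Psmc4 (-0.88 ± 0.41) and Psmd9 (-0.55 ± 0.22), with edgeR adjusted p of 0.377 and 0.27. Groups did not overlap for 5 members with higher KIN values (Psmb4, Psmb6, Psmb9, Psmd3 and Psme1), where 8.46% of all genes were, and for 2 with lower ones (Psmc4 and Psmd9), where 7.55% were.

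All 3 immunoproteasome and both PA28 genes had a log2FC above 0 in microglia, without a call. Psmb9 had 0.55 ± 0.27 (edgeR adjusted p = 0.422), Psmb10 0.50 ± 0.36 (edgeR adjusted p = 0.685) and Psmb6 0.62 ± 0.37 (edgeR adjusted p = 0.557). The value of Psmb8 turned on WT microglia replicate 2, which had 20.8 CPM and stood apart by the lowest TMM factor, 0.612, and by 744 CPM of microglial markers against 449 and 434 CPM in the other WT libraries. Without it Psmb8 was higher by 1.74 (edgeR adjusted p = 0.000448), in a fit where 227 of 10676 genes were called higher and 226 lower. With all libraries 80 of 10831 genes were called higher and 85 lower. On its transcript of highest mean Psme1 was higher by 1.45 (edgeR adjusted p = 0.0456). Of the 5 ATPases tested, 4 were below 0 (median -0.37), and over all members the median was -0.06, beside -0.01 over all genes. Psmf1, the inhibitor PI31, had -0.91 ± 0.66 (edgeR adjusted p = 0.68) and Psmd1, the largest base subunit, -0.60 ± 0.42 (edgeR adjusted p = 0.647). The log2FCs of Psmb5, Psmb7, Psme3 and Psme4 were smaller than their SE. Psmd6, a lid subunit, was at 0 reads in all 3 KIN microglial libraries against 9 in WT microglia, on counts too low for the test or for a fold. Neuronal markers summed to 12.9 to 40.0 CPM in WT and 5.38 to 7.95 CPM in KIN microglia. Oligodendrocyte markers were also lower in KIN microglia without overlap, at 17.9 to 21.2 against 7.95 to 10.8 CPM. Lymphocyte markers were higher, at 3.58 to 4.26 CPM in WT and 5.03 to 7.15 CPM in KIN microglia. The part of these markers was not tested.

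In neurons 34 members could be tested, 0 were called higher, where 0% of all genes were, and 0 lower, where 0.0739% were, by edgeR and also by DESeq2. At an unadjusted edgeR p of at most 0.05, 1 was higher, where 2.66% of all genes were, and 1 lower, where 2.38% were, and DESeq2 had 0 of either. Psmb7 had a log2FC of 1.82 ± 0.77 (edgeR adjusted p = 0.912), at 1.08, 0 and 5.39 CPM in WT and 3.93, 13.0 and 7.74 CPM in KIN neurons, with overlap. Psmb4 had -1.35 ± 0.64 (edgeR adjusted p = 0.968), and its WT libraries ran from 2.17 to 13.5 CPM. Psmd8 had -1.04 ± 0.53, Psmd13 -0.57 ± 0.54, Psmd2 0.78 ± 0.52, Psmc3 0.73 ± 0.39 and Psmb5 0.73 ± 0.57, each with an edgeR adjusted p of 0.968, and Psmd2 turned to -0.088 on its transcript of highest mean. Psmc3 was the 1 member whose groups did not overlap with KIN higher, where 11.5% of all genes were, and 0 members were lower without overlap, where 2.22% were. Psmb6, Psmb8, Psme1, Psme2 and Psme4 had log2FCs smaller than their SE, and Psmb9, Psmb10 and Psme3 had too few reads to be tested. The KIN neuronal libraries were deeper than the WT ones, and the part of depth was not tested.

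Whether the genotype difference itself differed between the glial fractions was tested as an interaction of genotype and fraction over 12 libraries. 0 of 44 members were called higher (a KIN effect larger in microglia), where 0.776% of all genes were, and 0 lower, where 0.369% were, by edgeR and also by DESeq2. At an unadjusted edgeR p of at most 0.05, 0 were higher, where 7.13% of all genes were, and 7 lower, where 6.00% were, and DESeq2 had 0 and 3. The 7 were Psmd6, Psmc4, Psmb2, Psmc3, Psmd13, Psma6 and Psme1. Psmd6 had the lowest value, -4.01, with 0 reads in every KIN microglial library and at most 8 in any other library, too few for a fold. Psmc4 had a difference of -1.78 ± 0.52 (edgeR adjusted p = 0.0669), Psmb2 of -1.58 ± 0.46 (edgeR adjusted p = 0.0681), Psmc3 of -1.34 ± 0.42 (edgeR adjusted p = 0.0993) and Psme1 of -0.98 ± 0.46 (edgeR adjusted p = 0.332), which turned to 0.010 on its transcript of highest mean. Of the 30 constitutive 26S genes tested 24 were below 0 (median -0.52), beside a median of -0.04 over all genes. Psmb8 had 1.57 ± 0.89 (edgeR adjusted p = 0.463) in this interaction, with 0.35 without WT astrocytes replicate 2 and 2.42 without WT microglia replicate 2, and it had too few astrocyte reads for the genotype test in that fraction. Psmb10 had 1.09 ± 0.69 (edgeR adjusted p = 0.531), with 0.45 without KIN astrocytes replicate 1 and 1.63 without KIN astrocytes replicate 3. Psmb7 had -0.86 ± 0.67 and Psmb5 -0.62 ± 0.43, with edgeR adjusted p of 0.632 and 0.59. The values of Psmb6, Psmb9, Psme2, Psme3 and Psme4 were smaller than their SE. Psmb2 and Psmc3 were called without WT astrocytes replicate 2 (-1.85 and -1.78), and Psmb2 without WT microglia replicate 3 (-1.82).

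A list of 21 genes that work with the proteasome without a Psm name was read in the same fits. In astrocytes 1 of 19 was higher in KIN mice, where 2.43% of all genes were, and 0 lower, where 6.42% were (median 0.24, against -0.00 over all genes), namely Uchl5, a deubiquitinase of the cap, with 1.30 ± 0.39 (edgeR adjusted p = 0.0188). In microglia 1 of 20 was higher, where 0.739% of all genes were, and 0 lower, where 0.785% were (median 0.15, against -0.01 over all genes), namely Rad23b, a shuttle for ubiquitinated proteins, with 1.05 ± 0.27 (edgeR adjusted p = 0.0493). In neurons no gene of the list passed the edgeR thresholds, and 2 of 13 were higher by the unadjusted p, where 2.66% of all genes were. Sem1, a small lid subunit, had 0.95 ± 0.38 in astrocytes (edgeR adjusted p = 0.0912). Adrm1, a ubiquitin receptor of the cap, had 0.37 ± 0.39 in astrocytes (edgeR adjusted p = 0.617) and 0.54 ± 0.36 in microglia (edgeR adjusted p = 0.635). Pomp, the maturation factor of the core, had 0.39 ± 0.31 in astrocytes (edgeR adjusted p = 0.475). Nfe2l1, the factor that drives proteasome genes when the proteasome is blocked, had -0.34 ± 0.25 in astrocytes (edgeR adjusted p = 0.445) and -0.46 ± 0.28 in microglia (edgeR adjusted p = 0.58). It was lower in neurons than in astrocytes of WT mice (-1.21 ± 0.45, edgeR adjusted p = 0.0445) and of KIN mice (-1.89 ± 0.41, edgeR adjusted p = 7.9e-05).

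The immunoproteasome feeds MHC class I, so 10 genes of that route were read too. This list, like the one above, was chosen with earlier results of these data known, so its share of calls is a description. In WT mice 6 of 10 were higher in microglia than in astrocytes, where 12.0% of all genes were (median 2.27, against -0.04 over all genes). In KIN mice 8 of 10 were, where 17.5% of all genes were (median 1.70, against -0.01), and none was lower in either, also by the unadjusted edgeR p. B2m, the light chain of MHC class I, was higher in microglia by 3.94 ± 0.37 in WT mice (edgeR adjusted p = 1.41e-17) and by 3.49 ± 0.23 in KIN mice (edgeR adjusted p = 4.35e-30). Between genotypes 2 of 8 were higher in KIN astrocytes (median 0.93), where 2.43% of all genes were, and 2 of 10 in KIN microglia (median 0.77), where 0.739% were, B2m and H2-D1 in each case. B2m rose in astrocytes from 4.35 ± 2.24 to 13.3 ± 1.74 CPM (log2FC 1.58 ± 0.31, edgeR adjusted p = 0.00026), and at 67.1 ± 23.5 and 151 ± 16.2 CPM in microglia (1.18 ± 0.25, edgeR adjusted p = 0.0133). H2-D1, a heavy chain, was higher by 1.18 ± 0.29 in astrocytes (edgeR adjusted p = 0.00401) and by 1.31 ± 0.25 in microglia (edgeR adjusted p = 0.00601), although its reads may be split with the near-identical H2-K1. In neurons, and in the interaction for either list, no gene passed the edgeR thresholds.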

How the data were processed

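Sequencing libraries were made from 18 samples (3 cell fractions, 2 genotypes, 3 libraries each). Per the study's methods and the submitters' processing notes, the authors trimmed reads with cutadapt 4.6, mapped them stepwise with Bowtie2 2.4.4 (first to non-coding RNA, afterwards to mm39), counted them with HTSeq 2.0.2 without strand and removed copies by unique molecular identifier. The deposited values used here are raw whole-number counts per transcript. Other per-sample columns (36) and the columns of the authors' own fold changes and p-values were not used.

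Counts were summed by gene symbol. Genes with 5 reads in at least 2 libraries of a fit were tested by edgeR 4.0.16 (limma 3.58.1, R 4.3.3) with TMM scaling, the quasi-likelihood test and Benjamini-Hochberg adjustment over all genes tested, with calls at an adjusted p no higher than 0.05 and a log2FC of 1 or more in size. The prior count was 0.125, and the SE is the log2FC over the square root of F. KIN was compared with WT in each fraction (6 libraries), the fractions in each genotype (9 libraries), and the interaction over 12 libraries. CPM were scaled over all 18 libraries. DESeq2 1.42.0 and other scalings, filters and transcripts were alternatives, and each library was left out in turn. Psmd9 without 1 transcript was added after the data were seen.

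The members and gene lists were chosen with earlier results of these data known. Genes named are the catalytic and activator subunits, every called member and the 3 highest and 3 lowest log2FCs of a comparison. In simulated counts with a log2 change of 2, the test recovered 138 of 185 changed genes for the genotype comparison in astrocytes, 146 of 188 in microglia and 107 of 156 in neurons. For the interaction it recovered 75 of 192. False calls were 6, 2, 9 and 2 in this order. The genotype log2FCs of the members within a fraction were all smaller in size than this change, so recovery for such values was not simulated. Replicates of a fraction are different mice per the study's methods. Intervals cover counting error only.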

Additional observations from a re-analysis of the deposited data

Results flagged for a closer look

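Psmc4, an ATPase of the 19S base, stood out because all KIN libraries lay above all WT ones in astrocytes and below them in microglia. It was at 4.95, 4.23 and 4.70 CPM in WT and 8.64, 10.2 and 7.67 CPM in KIN astrocytes, and at 3.88, 4.96 and 5.11 CPM in WT and 3.18, 1.79 and 2.46 CPM in KIN microglia. The log2 ratio of mean CPM of KIN to WT differed by -1.85 (microglia minus astrocytes). The edgeR interaction was -1.78 ± 0.52 (edgeR adjusted p = 0.0669), which did not pass the adjusted threshold, and with genes of a mean of at least 10 counts it was -1.77 (edgeR adjusted p = 0.0465), which did. The other 21 of 22 alternatives gave no call, with edgeR or DESeq2 adjusted p of up to 0.324.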

How the results depend on the processing

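Depth limits these results: 27 of 48 members stayed under 30 reads in every library, and a gene with 0 reads may have had up to 3. In astrocytes the adjusted p alone gave 6 genotype calls in place of 3, and DESeq2 gave 2. On the transcript of highest mean, microglia gave 1 genotype call (Psme1) in place of 0, and the interaction 1 in place of 0 (Psmb2, -1.81). The interaction also gave 1 with no low-count filter (Psmb2, -1.62) and 1 with a mean of at least 10 counts (Psmc4, -1.77). Microglia against astrocytes in WT mice fell from 7 calls to 4 with DESeq2, 4 with a mean of at least 10 counts and 3 on the transcript of highest mean. Neurons against microglia gave, in place of 1 call in WT mice, 0 with no filter, 2 with a mean of at least 10 counts and 0 on the transcript of highest mean, and in KIN mice 4 with DESeq2 in place of 7. On the transcript of highest mean the immunoproteasome share was 8.28% and 2.77% in WT and KIN astrocytes, 46.7% and 50.9% in microglia and 41.1% and 18.7% in neurons. With it the sign turned for Psmd2 in neurons (-0.088) and for the interaction of Psme1 (0.010), and without its retained-intron transcript Psmd9 in astrocytes was at 0.14. Leaving out each library gave 1 to 5 genotype calls in astrocytes, 0 to 1 in microglia, 0 to 0 in neurons and 0 to 2 for the interaction. It gave 3 to 6 calls for microglia against astrocytes, 2 to 4 for neurons against astrocytes and 0 to 2 for neurons against microglia in WT mice, and 12 to 14, 4 to 7 and 5 to 8 in KIN mice. With DESeq2 size factors, neurons against astrocytes in KIN mice had 24 members above 0 and 18 below, in place of 19 and 23. Of the other values recomputed, 1469 kept their direction and their side of the threshold, 67 lost and 18 gained a call. Causes were not tested.

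Same-numbered libraries shared a number and no shown source: their deviations correlated above 0.1 in 1 case alone (WT astrocytes and microglia replicate 2, 0.209). With the replicate number as a block, astrocytes gave 4 genotype calls and the interaction 2 (Psmb2 -1.65 and Psmc3 -1.41).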
